A study of Mus with 2 samples.

Results

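The genes of MHC class II and of its loading machinery were examined in mouse BMDMs that were polarized toward M2 macrophages with or without the FXR agonist GW4064. The 10 genes were H2-Aa, H2-Ab1, H2-Eb1, Cd74, Ciita, H2-DMa, H2-DMb1, H2-DMb2, H2-Oa and H2-Ob. The genes were taken by name, with earlier results of these data known. They were read by 12 of the 39429 probes on the array, and all 10 were among the 20144 genes that could be named. BMDMs are macrophages grown from bone marrow, here from 10-week-old male C57BL6/J mice, by culture for 7 d with 10 ng/mL of M-CSF. Both groups then received 10 ng/mL of IL-4 for 24 h, the M2 condition, 1 with the solvent DMSO and 1 with 10 µM of GW4064 dissolved in DMSO. There was 1 array of 1 RNA sample for each group, the number of mice behind each sample is not given in the sources used here, and no group without IL-4 was on the arrays.

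MHC class II molecules present peptides from endosomes to CD4+ T cells. An alpha and a beta chain are assembled in the endoplasmic reticulum around the invariant chain, which fills the groove and takes the complex to endosomes. There the invariant chain is cut down to a short peptide, H2-DM exchanges that peptide for antigenic peptides, and H2-O restrains H2-DM. The genes share promoter elements bound by RFX, NF-Y and CREB factors, and CIITA, which does not bind DNA itself, switches them on through these factors. Macrophages raise MHC class II with IFN-gamma and, to a smaller degree, with IL-4. C57BL/6 mice do not make the H2-E alpha chain, so that the H2-E beta chain encoded by H2-Eb1 has no regular partner in them.

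Signals are the processed intensities of Agilent's Feature Extraction software, with the background subtracted, and each of the 12 probes was read at 1 spot. A log2 difference is the GW4064 array minus the DMSO array after the 75th percentile of each array had been set to 0. With 1 array for each group no difference could be tested against the spread between cultures, and every difference is given by its size only. The error within the arrays was read in 2 ways. The software's own error of a signal gave an error of 0.20 on the log2 difference for bright probes, and 39 probes that were printed 10 times with signals over 10000 had a median SD of 0.070 over their copies. Between the 2 probes of a gene, for 2711 genes, the median gap was 0.10 and the 90th percentile of the gap was 0.32. By the software's mark, 57.4% of the probes passed as well above background with DMSO and 58.5% with GW4064, and 0 spots were saturated.

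The chains of MHC class II, the invariant chain and H2-DM were lower on the GW4064 array, by 1.33-fold to 2.04-fold. Of the 10 genes, 8 passed the mark for background with DMSO, with GW4064 or with both, and 7 of the 8 were lower. H2-Ob was the 1 gene counted as higher, with a log2 difference of 0.017 from signals near background. Among all 13532 genes measured, 48.2% were lower and 51.6% were higher by any amount. Of the 8 genes, 6 were 1.5-fold or more lower, against 5.56% of all genes, and 1 was 2-fold or more lower, against 2.71%. None was 2-fold or more higher, against 2.04% of all genes. The median log2 difference of the 8 genes was -0.74, and that of all genes was 0.0068. Dim probes scatter more, so bright probes were also set apart, a choice made after the values were seen. Of 10184 probes with a mean signal of 1000 or more, 0.795% were 1.5-fold or more lower and 0.177% were 2-fold or more lower. The members had 7 such probes, for 6 genes, of which 6 were 1.5-fold or more lower and 1 was 2-fold or more lower. Fewer cells that express these genes and less RNA of them in each cell cannot be told apart in RNA from a whole culture.

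**Figure D1:**
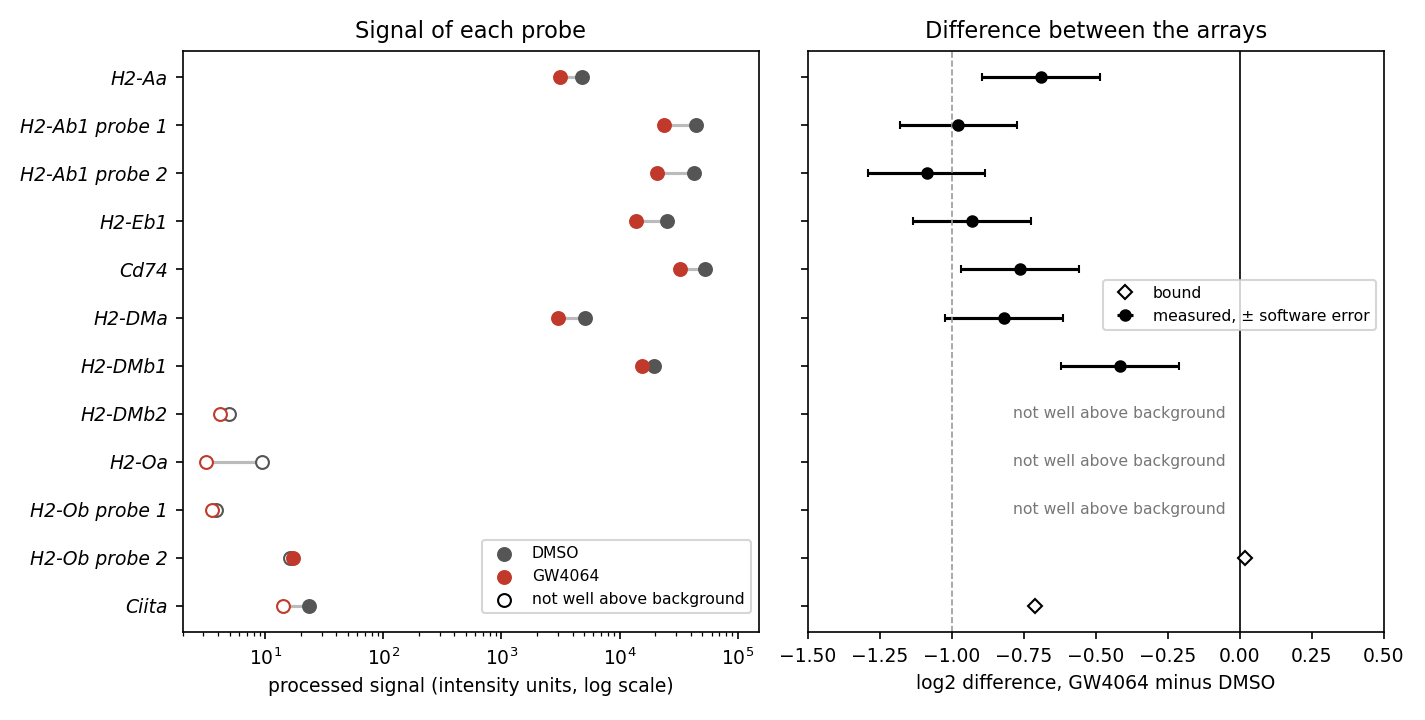
Left, the signal of each of the 12 probes (intensity units, log axis) on the DMSO array (grey) and the GW4064 array (red), with open symbols for signals not well above background. Right, the log2 difference of GW4064 minus DMSO with the software's error as bars, diamonds for bounds and a dashed line at 2-fold lower. The 7 bright probes lie between -1.09 and -0.42, and the other 5 are at or near background.

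The chains that form the peptide groove were all lower. The gene of the beta chain of H2-A, H2-Ab1, was read by 2 probes. One gave signals of 44403 with DMSO and 23612 with GW4064, a log2 difference of -0.98. The other gave 42337 and 20853, a log2 difference of -1.09. The probes of a gene are not replicates of the treatment. The gap of 0.11 between the probes was close to the median gap for genes with 2 probes, and the mean of -1.03 corresponds to 2.04-fold. H2-Ab1 ranked as the 353rd lowest of the 13532 genes. H2-Aa, which encodes the alpha chain of H2-A, had a signal of 4817 with DMSO and 3127 with GW4064, a log2 difference of -0.69 or 1.61-fold. H2-Eb1 had signals of 25103 and 13787, a log2 difference of -0.93 or 1.91-fold. The distance of H2-Ab1 from H2-Eb1 was less than the software's error, and their order turned with normexp, another background correction, which gave -1.02 for H2-Eb1. For all 3 genes the DMSO array had the higher signal, and the difference was over 3 times the software's error of 0.20.

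Cd74 encodes the invariant chain, which on macrophages is also a receptor for the cytokine MIF. Its signal was 52282 with DMSO and 32249 with GW4064, a log2 difference of -0.76 or 1.70-fold. The DMSO array thus had the higher signal here too, and the distances of Cd74 from H2-Aa and from H2-Eb1 were less than the software's error of 0.20.

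The products of H2-DMa and H2-DMb1 pair to form H2-DM. H2-DMa had a signal of 5063 with DMSO and 3004 with GW4064, a log2 difference of -0.82 or 1.76-fold. H2-DMb1 had signals of 19671 and 15433, a log2 difference of -0.42 or 1.33-fold, the smallest among the bright probes. Both chains were thus lower with GW4064, and the alpha chain by more. The spot of H2-DMa had 3 other spots within 300 µm that differed 8-fold or more between the arrays, which marks a damaged area of the slide. The median log2 difference of the spots up to 5 rows and columns away from it was -0.046. The second beta chain gene, H2-DMb2, is a close copy of H2-DMb1. Its probe had signals of 4.99 and 4.14, neither of them well above background, so that no difference was taken. The probe sequences were not given, and how far each of these probes also binds the other gene's RNA was not tested.

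The genes of H2-O, which B cells and some dendritic cells use, were at or near background. H2-Oa had signals of 9.47 with DMSO and 3.15 with GW4064, neither well above background, and no fold is given. H2-Ob was read by 2 probes. The first had signals of 3.82 and 3.58 and was not above background on either array. The second had signals of 16.3 and 17.3 and was well above background on the GW4064 array only. Its log2 difference was 0.017, with a software error of 0.46. A probe past the mark only with GW4064 was held at 0 or above. H2-Ob is the only one of the 8 genes counted as higher, and its signals lay next to 15.7 and 15.1, the lowest signals well above background on the DMSO and GW4064 arrays.

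Ciita, the master regulator, was itself dim. Its single probe had a signal of 23.6 with DMSO, well above background, and 14.1 with GW4064, not well above background. With 15.1, the smallest signal past the mark, in place of 14.1, it was 1.64-fold lower. This is not a strict minimum, since the probe of Fcer2a failed the mark on the GW4064 array at 22.3. The software's error on the log2 difference of Ciita was 0.56, against 0.20 for the bright members. The normexp correction adds an offset that shrinks differences between dim signals, and it gave a log2 difference of -0.35 in place of -0.71.

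**Figure D2:**
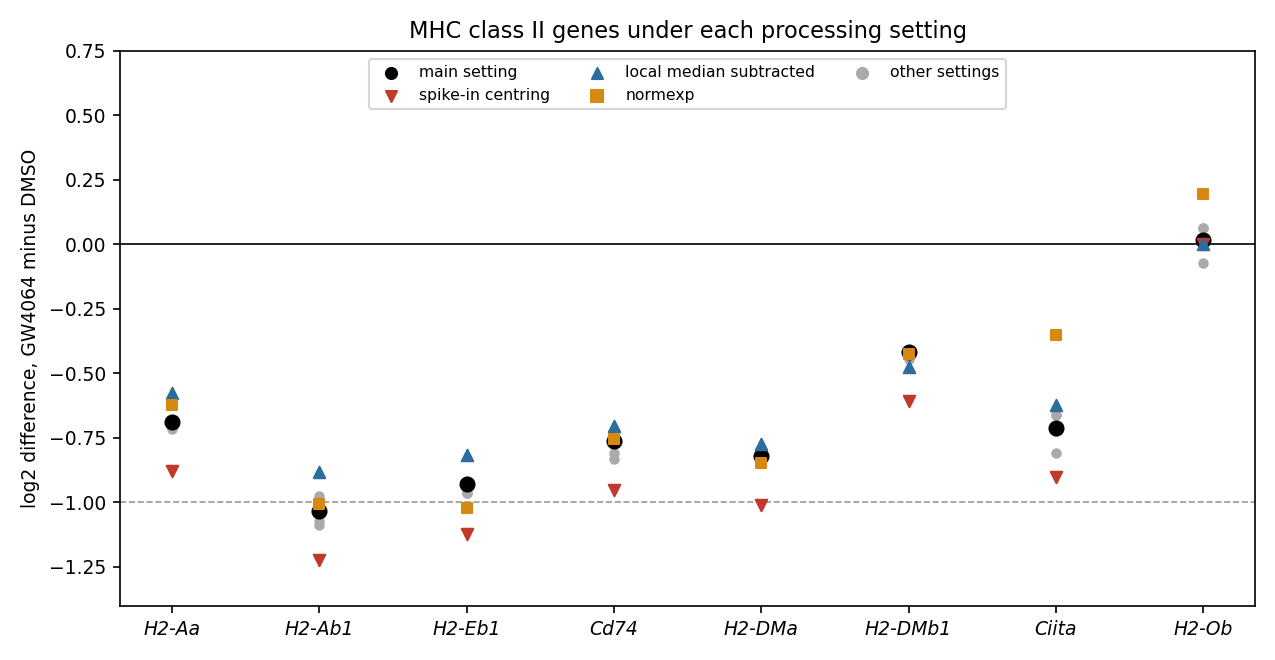
Log2 difference of GW4064 minus DMSO for the 8 measured genes under each processing setting, with the main setting in black, spike-in centring as red triangles pointing down, the subtracted local median as blue triangles pointing up normexp as orange squares and the other settings in grey. H2-Aa, H2-Ab1, H2-Eb1, Cd74, H2-DMa, H2-DMb1 and Ciita stay below 0 in every setting that measured them. Ciita was held at 0 or below except without a filter on dim probes. The dashed line at 2-fold lower passes between H2-Ab1 and the other genes in the main setting.

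The direction of the 7 lower genes was the same in all settings that measured them. For Ciita this was largely fixed beforehand, since a probe past the mark only with DMSO was held at 0 or below. Without a filter on dim probes this limit was not applied, and Ciita had -0.81. The 2-fold line was not a stable divide, since H2-Ab1, H2-Eb1 and H2-DMa lay close to it. Centred on the spike-in RNA, which lowered the median of all genes to -0.18, the number of genes 2-fold or more lower was 3, and H2-Ab1 had a log2 difference of -1.22. When the median difference around each spot was subtracted the number was 0, and H2-Ab1 had -0.88. Around the 7 bright spots the local medians lay between -0.19 and 0.059, with the positive one at H2-DMb1, and subtracting the local median raised the median of all genes from 0.0068 to 0.080.

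Most of these genes lie together in the MHC on chromosome 17. In the annotation 14 protein-coding genes run from H2-Oa to H2-Eb2, and 8 of them are members. The other genes of this stretch, which include those of the class I peptide transporter (Tap1 and Tap2) and of the immunoproteasome (Psmb8 and Psmb9), were named for their position after the values were seen. Of these 6 genes, 5 were measured, with log2 differences of -0.15 for Psmb9, -0.13 for Tap2, -0.070 for Tap1, 0.014 for Brd2 and 0.070 for Psmb8. All 5 were closer to 0 than H2-DMb1, with -0.42, and Brd2 and Psmb8 were negative with spike-in centring, while Tap1 was positive after subtraction of the local median. For H2-Eb2, neither array was well above background. Cd74, on chromosome 18, and Ciita, on chromosome 16, lie outside the MHC and were lower as well.

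**Figure D3:**
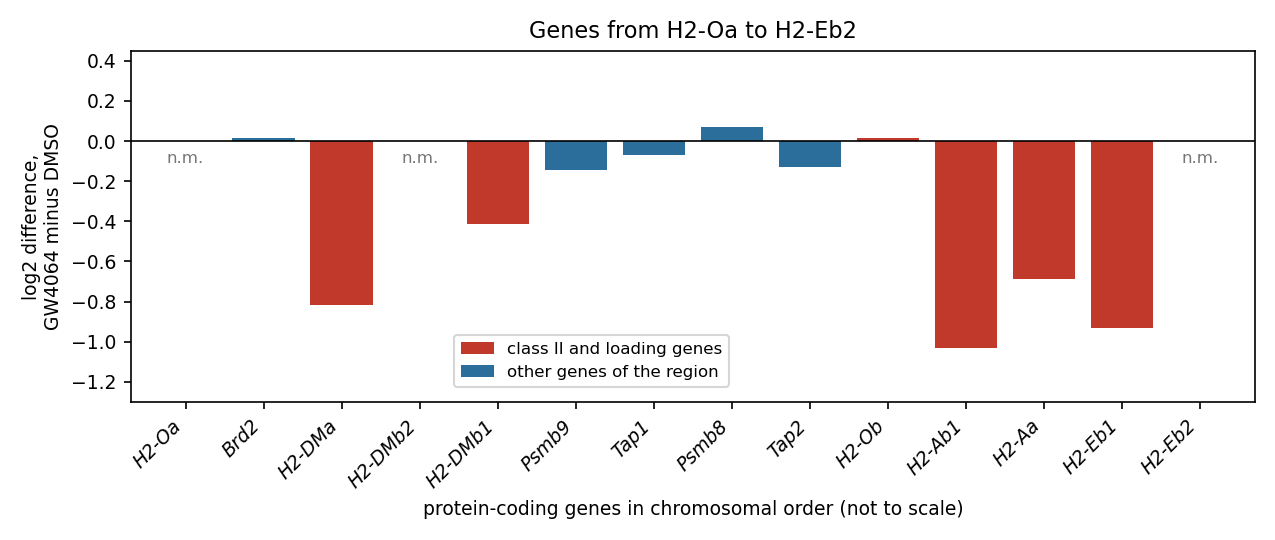
Log2 difference of GW4064 minus DMSO for the 14 protein-coding genes from H2-Oa to H2-Eb2 in their chromosomal order (not to scale). Members are in red (H2-Ob well above background with GW4064 only) and other genes in blue, with n.m. for genes not well above background on either array. H2-DMa, H2-DMb1, H2-Ab1, H2-Aa and H2-Eb1 lie between -1.03 and -0.42, and the 5 other genes measured lie on both sides of 0, between -0.15 and 0.070, where Brd2, Psmb8 and Tap1 change sign with the scaling.

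The factors that bind class II promoters or control Ciita showed small differences. Of 19 genes, all measured, 14 were lower and 5 higher, 0 were 2-fold or more different, and the median log2 difference was -0.043, which was 0.060 after subtraction of the local median. For RFX, which binds the X box of these promoters, Rfxank had -0.16 and Rfxap had 0.0083. Rfx5 had a bound of 0.080, on a probe with signals of 12.8 with DMSO, which failed the mark, and 17.4 with GW4064. This bound is not a strict minimum, and Rfx5 had -0.19 without a filter on dim probes. The NF-Y genes Nfya, Nfyb and Nfyc had -0.021, 0.014 and -0.020, and Creb1 had -0.043. In the main setting the values of these 7 genes were smaller than the software's error on a single difference. All but that of Rfxank changed sign with the scaling or the filter on dim probes.

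Of the factors that act on the Ciita gene, Prdm1, whose product Blimp-1 represses Ciita, had the lowest value of the list. Its signal was 776 with DMSO and 550 with GW4064, a log2 difference of -0.56. Socs1, an inhibitor of cytokine signaling through JAK and STAT, had -0.53, and its spot had 13 others with 8-fold differences within 300 µm. Irf4, a factor induced by IL-4, had -0.48, and its spot had 4 such neighbors. The 3 genes were lower in every setting that measured them. Irf8 had the highest value, 0.20. Socs3, a relative of Socs1, had -0.23, and Usf1, which binds a promoter of Ciita, had -0.15. Of the factors of the IFN-gamma route, Irf1 had -0.15 and Irf2 had -0.091, while Stat6, which carries the IL-4 signal, had -0.010 and Spi1, the macrophage factor PU.1, had -0.019. Of these, Irf2, Stat6 and Spi1 were so near 0 that their sign depended on the scaling. Nlrc5, the counterpart of CIITA for class I, was read by probes that disagreed, -0.11 on the brighter one and 0.25 on the dimmer one.

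The enzymes and partners that act on class II after synthesis did not follow it in size. Of 21 genes, 19 were measured, 12 lower and 7 higher, 0 of them 2-fold or more, with a median log2 difference of -0.064. Ctss, the protease that makes the last cuts of the invariant chain in many cells, had a signal of 148183 with DMSO and 132144 with GW4064, a log2 difference of -0.23. Lgmn, which makes early cuts, had -0.16, and Sppl2a, which removes the last membrane stub of the chain, had -0.052. Ctsl had 0.22 and Ctsd, by 2 probes, had 0.21, so that the lysosomal proteases differed in both directions. Among the other cathepsins, Ctsh had -0.34, while Ctsb had -0.12 and Ctsz had 0.10, and the sign of both of these depended on the scaling. Ifi30, the thiol reductase GILT, had 0.12, which spike-in centring turned to -0.068.

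Differences in both directions were also seen among the genes that set how long class II stays at the surface. Cd83, whose product keeps class II at the surface by opposing MARCH1, had the highest value of the list. Its signal was 3878 with DMSO and 6516 with GW4064, a log2 difference of 0.68 or 1.61-fold. Marchf1, which encodes the ubiquitin ligase MARCH1 that sends class II to lysosomes, was read by probes that disagreed. The brighter probe, printed 10 times, had -0.084, and the other had -0.60. Marchf8 had -0.050. Mif, the ligand of the invariant chain, had 0.48 as the mean of 2 probes, with 0.42 and 0.53. Cd83 and Mif were higher in all 12 alternative settings. Cd44, the signaling partner of the invariant chain, had -0.19, and Cxcr4, a further receptor of MIF, had -0.099. The tetraspanins Cd9, Cd63 and Cd82, which lie beside class II in membranes, had -0.14, -0.064 and 0.041, and Mr1, a presenter of microbial metabolites, had -0.15. Spike-in centring turned Cd82 to -0.15, and subtraction of the local median turned Mr1 to 0.0063. H2-Eb2 and Btnl2, both encoded in the MHC, were at background.

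**Figure D4:**
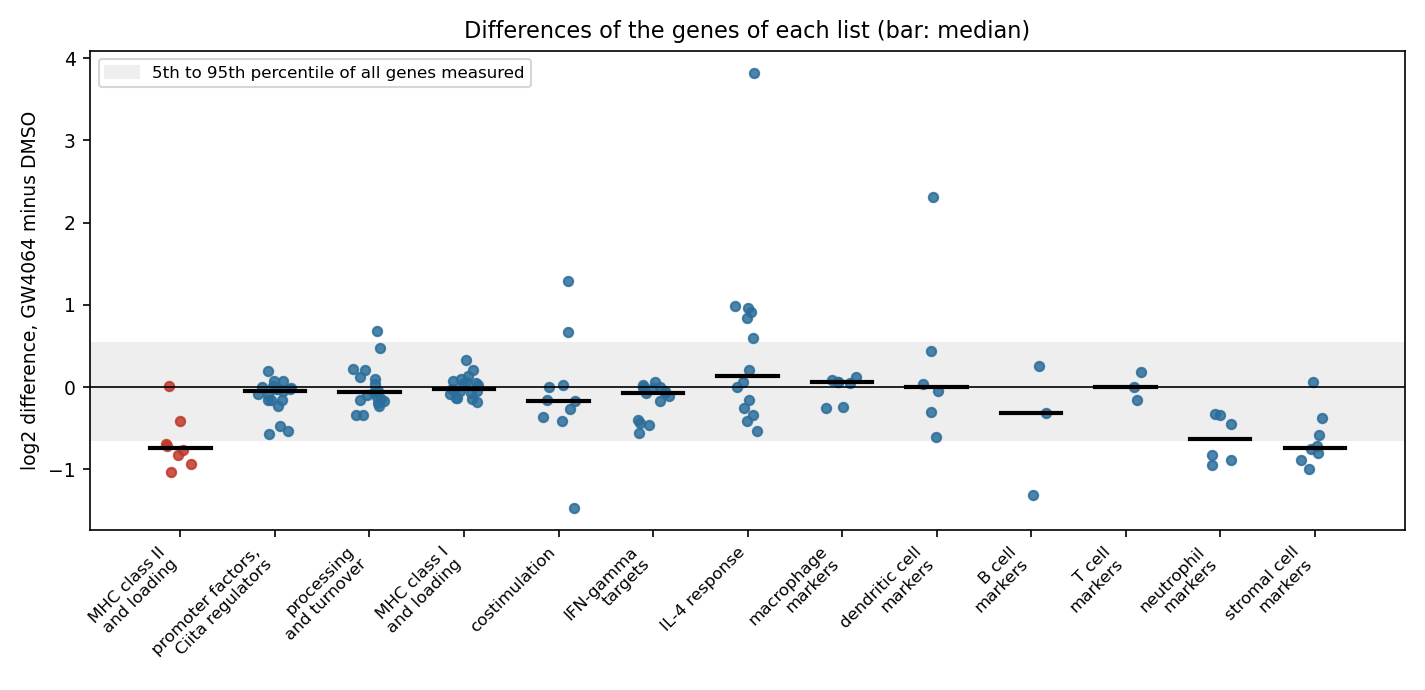
Log2 difference of GW4064 minus DMSO for each measured gene (points) of the lists on the horizontal axis, with bars for the medians and a grey band from the 5th to the 95th percentile of all genes measured (-0.65 to 0.53). The medians of MHC class II (-0.74), stromal cell markers (-0.74) and neutrophil markers (-0.64) are the lowest, and that of MHC class I is -0.020, a value that changes sign when the local median is subtracted.

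MHC class I and its loading genes did not show the difference seen for class II. All 19 genes were measured, 10 lower and 9 higher, 0 of them 2-fold or more different, with a median log2 difference of -0.020. The lowest was Tapbp, which encodes tapasin, with -0.17, and the highest was Calr, which encodes calreticulin, with 0.33. The range of class I therefore did not reach the range of -1.03 to -0.42 of the 7 lower class II genes. The median of class I was -0.21 with spike-in centring and 0.073 after subtraction of the local median. With 1 array for each group, this contrast between the lists could not be tested.

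The genes for costimulation differed in both directions. Of 10 genes, all measured, 7 were lower and 3 higher, with a median of -0.16. Icosl, the ligand of the T cell receptor ICOS, had a signal of 122 with DMSO and 46.3 with GW4064, a log2 difference of -1.47. Tnfsf4, which encodes OX40 ligand, had a signal of 40.4 with GW4064, while its 14.5 with DMSO failed the mark for background. Replacing 14.5 by 15.7, the smallest DMSO signal past the mark, made it 2.45-fold higher, a log2 difference of 1.29. That fold is not a strict minimum, since the probe of Fcer2a failed the mark on the DMSO array at 23.6. After the normexp correction the log2 differences were -0.65 for Icosl and 0.086 for Tnfsf4.

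IFN-gamma and IL-4 are the cytokines that raise class II in macrophages, and other genes of their responses were set beside it. The IFN-gamma list held 16 genes outside the MHC. Besides targets it held the receptor chains Ifngr1 and Ifngr2 and the kinases Jak1 and Jak2, which carry the signal. Of the 16 genes, 15 were measured, 11 lower and 4 higher, 0 of them 2-fold or more, with a median of -0.069. The lowest was Cxcl10, a chemokine, with signals of 44.3 and 31.5 (-0.56 on the log2 scale, and -0.28 after normexp), and the highest was Ifngr2, a chain of the IFN-gamma receptor, with 0.065 (-0.13 with spike-in centring). Cxcl9 had a bound of -0.46, on a probe with signals of 19.9 with DMSO and 10.1 with GW4064, the latter not well above background. Without the bound that probe had -1.04, so the place of Cxcl9 beside Cxcl10 and the 2-fold line is not settled. Of 15 genes of the IL-4 response, 14 were measured, 9 higher and 5 lower, with a median of 0.14, which spike-in centring turned to -0.054. Arg1, the arginase of M2 macrophages, was the highest with 3.82, and Socs1 was the lowest.

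Markers of macrophages were present on both arrays at close levels. Of 8 markers, 7 had a named probe and all 7 were well above background, with a median log2 difference of 0.058 (-0.13 with spike-in centring), between -0.25 for Adgre1, which encodes F4/80, and 0.13 for Cd14 (-0.063 with spike-in centring). Their summed signal was 277082 with DMSO and 256122 with GW4064, after scaling to the same 75th percentile.

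B cells and dendritic cells, which carry much MHC class II, were looked for by their markers. Of 8 B cell markers, 5 were not well above background on either array, among them Cd79a, Pax5, Blk and Fcer2a. The 3 measured markers were 2 lower and 1 higher, with a median log2 difference of -0.32. The summed signal of the list was 425 with DMSO and 322 with GW4064. Cd79b, named after its values were seen, was well above background on both arrays. Its signals were 282 with DMSO and 236 with GW4064, a log2 difference of -0.32, and it was lower in all settings. Ms4a1, which encodes CD20, had a signal of 35.8 with DMSO and 7.08 with GW4064, not well above background. With 15.1 in place of 7.08 it was 2.47-fold lower, a log2 difference of -1.31, which was -0.57 after normexp. Cr2 had 0.26 as the mean of 2 probes, of which 1 had -0.079. Of 10 dendritic cell markers, Xcr1, Clec9a, Cd209a and Dpp4 were not well above background on either array. The other 6 were 3 higher and 3 lower, with a median of -0.0021, whose sign depended on the scaling, and a summed signal of 235830 with DMSO and 200646 with GW4064. Their lowest value was that of Ccr7 (-0.60, from a signal of 32.9, and -0.087 after normexp). Their highest was that of Flt3, 4.94-fold higher with 15.7 in place of its DMSO signal of 10.5, which failed the mark. That fold is not a strict minimum either. The probe of Flt3 lay in a damaged area of the slide, and its log2 difference was 0.72 after normexp in place of 2.31. Itgax, which encodes CD11c and is also expressed by macrophages, was the main part of the summed signal of these markers, with signals of 186594 with DMSO and 159127 with GW4064, a log2 difference of -0.30, and was named after its values were seen. It was lower in all settings that measured it, with -0.13 after subtraction of the local median. Its spot too lay in a damaged area of the slide. Of 6 T cell markers, Cd3d, Cd3g and Cd8a were not well above background, Cd4 had -0.15 and Cd3e had 0.18 (-0.0069 with spike-in centring), and the summed signal was 1689 and 1587.

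Markers of neutrophils and of stromal cells were lower with GW4064 by about as much as class II. All 6 neutrophil markers with a named probe were lower, with a median of -0.64 and a summed signal of 13746 with DMSO and 8503 with GW4064. Their lowest value was -0.94 for Mpo and their highest -0.32 for Camp. Of 9 stromal cell markers, 8 were measured and 7 were lower, with a median of -0.74 and a summed signal of 36348 and 19424. Col1a2, a collagen chain, was the lowest with -0.99, Pdgfra was the highest with 0.065 (-0.19 with spots marked by the software kept), and Lum was at background on both arrays. The summed signal of MHC class II itself was 151393 and 87188. The part of these cells in the difference of class II was not tested.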

How the data were processed

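RNA of 1 sample for each group was labelled with Cy3 and read on 1-colour Agilent mouse arrays. The authors deposited the scanner intensities of each array, processed with Feature Extraction, version 10.7.1.1 in the submitters' processing notes (background subtraction and detrending within the array, no scaling between arrays), and a log2 table of the same arrays, whose differences matched those computed here within 2.8e-06 of a constant of 0.0022 for probes printed once. Its scaling and centring are not given in the sources used here, and its column medians were 0.035 and -0.051.

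Here, log2 processed signals were shifted by the 75th percentile of each array over 43020 non-control spots (1209 and 1265). Spots marked non-uniform (215 and 30) or as outliers were left out, and spots of 1 probe were averaged. Where 1 array had a probe below the mark, the larger of that probe's signal and the smallest signal past the mark (15.7 and 15.1) took its place, which gives a bound. A bound that pointed away from the array past the mark was set to 0. It is not a strict minimum, since the probe of Fcer2a failed the mark at signals of 23.6 and 22.3. Gene values average the probes past the mark on at least 1 array. RefSeq accessions of GRCm38.p6 named 26581 probes. The array design was annotated on another build, so no coordinates are given.

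No test was possible with 1 array for each group, and that number limits the precision. The calculation was checked on simulated data, with planted differences larger than those of the members and noise like that of bright probes. This check did not cover differences of the members' size or the larger scatter of dim probes. The members and lists were chosen with earlier results of these data known. The text names all members, the genes of the lists of regulators and of processing (1 is not reported here), genes 2-fold or more different, and the highest and lowest gene of each other list. Marker genes not above background, Cd79b, Itgax, Cxcl9 and neighbors in the MHC were named after their values were seen.

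Alternatives were other scalings (quantile, median, spike-in, loess with span 0.3), subtraction of the local median, normexp with offset 50 on the median spot intensity, the deposited table, marked spots kept, damaged areas left out (2 or more other spots with 8-fold differences within 300 µm), other filters on dim probes, other fold thresholds and the brightest probe. The software was limma 3.58.1 under R 4.3.3, and Python 3.11.15 with statsmodels 0.14.6 and scipy 1.17.1 for the fits, matplotlib 3.10.9 for the plots, and pandas 2.3.3 and numpy 2.4.6.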

Additional observations from a re-analysis of the deposited data

How the results depend on the processing

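No paired analysis was possible because each group has 1 array. Of 8 genes measured, the same 7 (H2-Aa, H2-Ab1, H2-Eb1, Cd74, H2-DMa, H2-DMb1 and Ciita) were lower in each setting that measured them. Ciita was held at 0 or below except without a filter on dim probes. H2-DMa could not be measured without damaged areas, and Ciita and H2-Ob could not be measured when only probes above background on both arrays were kept. The number of genes higher, 1 in the main setting, was 0 with spike-in centring, with the local median subtracted, with only probes above background on both arrays and without a filter on dim probes. The number 2-fold or more lower, 1 in the main setting, was 3 with spike-in centring, 2 with normexp and without a filter (where H2-Oa, below background on both arrays, was added), 0 with the local median subtracted and with the brightest probe, 6 at a 1.5-fold threshold and 0 at a 4-fold threshold. The median of -0.74 was -0.93 with spike-in centring and -0.66 with the local median subtracted. Over all probes, 510 were 2-fold or more higher and 659 lower. These numbers were 112 and 120 with normexp, 277 and 338 without damaged areas, 178 and 278 with only probes above background on both arrays, 1637 and 1664 without a filter, 1117 and 1317 at 1.5-fold, and 118 and 156 at 4-fold. Signals near background limit what can be said of Ciita, H2-DMb2, H2-Oa and H2-Ob.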
